A study of Mus musculus with 6 samples.

Results

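Open chromatin was examined around 9 transcription factors of the secretory lineages of the mouse intestine, chosen by name out of 21938 annotated protein-coding genes: Atoh1, Gfi1, Spdef, Creb3l1, Neurog3, Neurod1, Insm1, Pax4 and Nkx2-2. All 9 were found in the annotation. A peak belonged to one of them when its summit lay in the gene body or within 50 kb on either side. The 6 deposited peak lists held 41, 47 and 57 such peaks in wild-type (WT) samples 1, 2 and 3, and 61, 46 and 56 in conditional knockout (cKO) samples 1, 2 and 3. Merged wherever they overlapped, they made 77 loci out of 71286 in the whole genome.

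The samples were intestinal crypts of WT and Arid3a cKO mice, 3 samples per genotype. ARID3A is a DNA-binding protein that prefers A+T-rich sequence, and the study asked how its loss changes chromatin accessibility in the epithelium. The cKO mice carried floxed Arid3a alleles (Arid3a fl/fl) and VillinCre-ERT2, a recombinase that acts in Villin-expressing intestinal epithelial cells once tamoxifen is given, so stromal cells keep the gene. Mice of both genotypes received tamoxifen on 3 consecutive days and were taken 1 month after the first injection; whether WT mice carried the recombinase, and the age of the mice, are not given in the sources used here. Crypts were dissociated to single cells, nuclei were exposed to Tn5 transposase, which cuts and tags open DNA, and 1 peak list was made per sample. The labels name separate samples of each genotype without saying that each came from its own animal, so the spread between lists may be partly technical.

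Crypts hold stem cells, dividing progenitors and Paneth cells. A progenitor in which Notch signalling is low expresses ATOH1 and takes a secretory fate, while its neighbours become absorptive. GFI1 and SPDEF then favour the goblet and Paneth fates, and NEUROG3, followed by NEUROD1, INSM1, PAX4 and NKX2-2, sets the enteroendocrine fate. Secretory cells are a minority of the crypt, and in a sample of mixed cells a small peak from many cells and a large one from few cells cannot be told apart.

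List length varied from 40492 peaks in WT 1 to 58297 in cKO 1, and WT 1 also had the lowest median fold, 5.26 against 5.89 to 6.24 in the other lists. Each list's lowest background, which follows its sequencing depth, was 1.75 to 2.29, and in WT 1 it was 2.11, above the other WT lists. Promoter peaks of the epithelial markers Cdh1, Vil1, Cdx2 and Olfm4 were called in 6 of 6 lists, and those of the other 4 epithelial markers in some lists. Promoter peaks were called in no list for the 5 leukocyte and the 5 neuronal and glial markers, and in all lists for 2 of 5 markers of mesenchyme and endothelium, Col1a1 and Pdgfra. The lists cannot check the deletion itself: the Arid3a promoter had a peak in 6 of 6 lists, and reads over the deleted part are not in a peak list.

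The start sites of the 9 genes were called open in all, some or none of the lists. No member had a peak summit in its promoter, from 1000 bases before to 100 bases after a transcription start site (TSS), in all 6 lists, whereas 44.6% of protein-coding genes did. A peak that covered a TSS, wherever its summit lay, was found in 6 of 6 lists at Atoh1, Insm1 and Creb3l1, a state shared by 56.1% of genes. At Gfi1 such a peak was called in WT 3, cKO 1 and cKO 2, at Spdef in cKO 2, at Neurog3 in cKO 1, at Nkx2-2 in WT 3, and at Neurod1 and Pax4 in no list. Among all protein-coding genes 36.1% had no such peak in any list and 7.86% had one in 1 to 5 lists.

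Across the windows, no locus was called in every list of one genotype and in none of the other. Of the 77 loci, 33 were called in all 6 lists (42.9%, against 45.9% of all loci) and 21 in a single list (27.3%, against 20.9%), 9 of these in cKO 1, the longest list (42.9%, against 30.7% of all loci called in a single list). None was called in 3 of 3 cKO and 0 of 3 WT lists, the pattern of 0.464% of all loci, and none in 3 of 3 WT and 0 of 3 cKO lists, the pattern of 0.111%. With at least 2 lists of one genotype and none of the other, 4 of 77 loci were cKO-sided and 1 WT-sided, where the shares of all loci were 3.34% and 1.25%.

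The mean number of peaks near the 9 genes was 48.3 ± 8.08 in WT and 54.3 ± 7.64 in cKO (SD, n = 3). This difference of 6 peaks was smaller than the spread between lists of one genotype, and it was 0.667 when every list was shortened to the length of the shortest. As a share of the list, these peaks made up 0.0992% ± 0.00571 in WT and 0.104% ± 0.00486 in cKO.

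**Figure D1:**
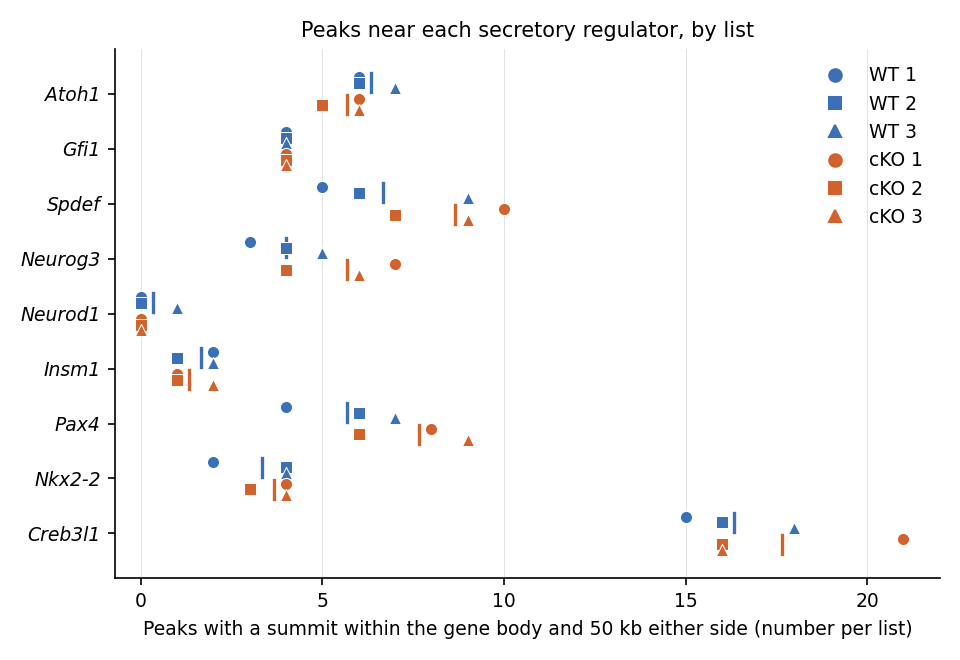
Number of peaks per list (x axis) whose summit lay in each gene's body or within 50 kb, with WT lists in blue, cKO lists in orange, 1 symbol per list and a bar at each genotype's mean. Creb3l1 had 15 to 21 peaks and Neurod1 0 or 1, and the genotypes overlap at each of the 9 genes.

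Counts per gene differed far more between genes than between genotypes. The median protein-coding gene had 5.17 peaks per list in a window of this kind. Creb3l1, in the longest window, had 16.3 ± 1.53 in WT and 17.7 ± 2.89 in cKO, and Spdef had 6.67 ± 2.08 and 8.67 ± 1.53. For each member the exact two-sided permutation test over the 6 lists gave p of 0.3 or more, with adjusted p = 1 over all protein-coding genes with a peak; 3 lists against 3 cannot give a p under 0.1.

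**Figure D2:**
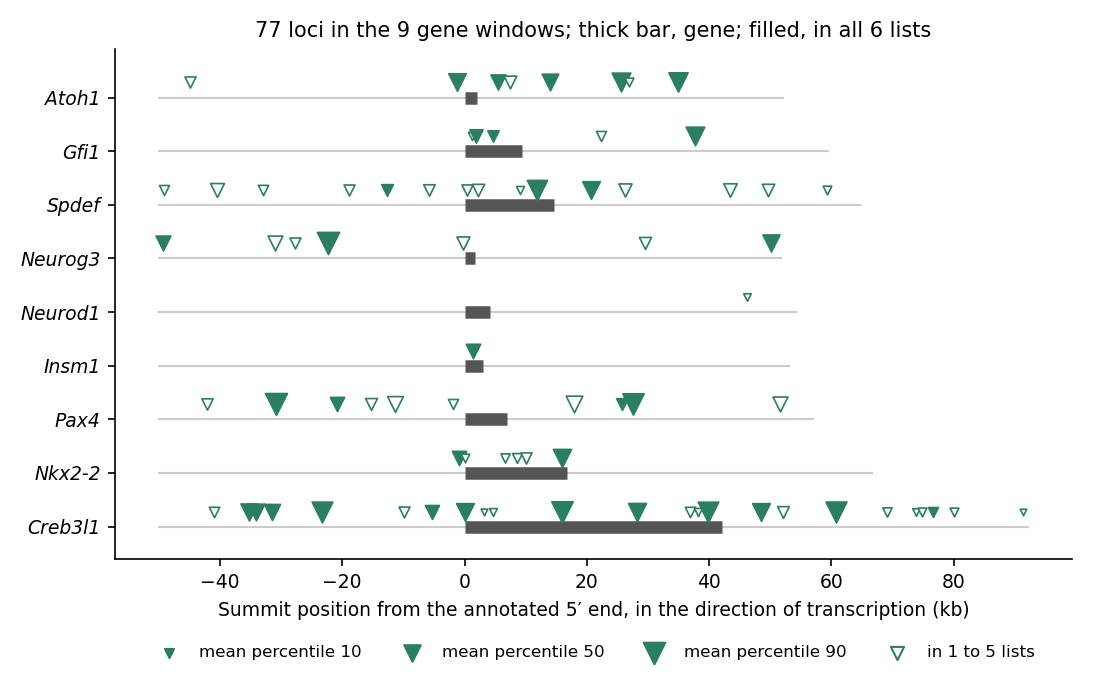
Position of the 77 loci (triangles) along each gene's window, as distance of the summit from the annotated 5′ end in kb, with the gene as a thick bar. Triangle size gives the mean within-list percentile of fold, and filled triangles mark the 33 loci called in all 6 lists; Atoh1 has 4 of them downstream of the gene and Neurod1 has none.

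The strength of a peak was compared as its rank. The fold of a peak is the ratio of the pileup of reads at its summit to the local background, and its percentile is its place among all peaks of its own list, from 0 for the lowest to 100 for the highest. Since the deposited fold and p follow from the pileup and the background, both could be recovered exactly, and each peak was also ranked by its pileup alone. A single locus was tested with limma on normal scores of the ranks, fitted to all 32748 loci called in all 6 lists, with Benjamini-Hochberg adjustment.

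No locus near the 9 genes passed that test. Of 33, 0 had an adjusted p under 0.05, as had 0% of all loci tested, and the lowest adjusted p was 0.776. An unadjusted p under 0.05 was given to 6 of 33 loci (18.2%), against 6% of all loci. The loci at Atoh1 −1.2 kb and Creb3l1 +60.8 kb were lower in cKO. Those at Atoh1 +25.6 kb, Creb3l1 −23.2 kb, Neurog3 −22.3 kb and Neurog3 +50.2 kb were higher. Creb3l1 +60.8 kb and Neurog3 −22.3 kb are promoters of Dgkz and Fam241b, and the gene nearest Neurog3 +50.2 kb is Tspan15. Ranked by pileup, limma again called 0 of 33, with 2 unadjusted p under 0.05 (6.06%, against 3.47% of all loci).

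The order of the lists was examined apart from the test. By fold, 1 of 33 loci was higher in every cKO than in every WT list, where 4.66% of all loci were, and 3 were lower, where 7.04% were. By pileup, 1 was higher, where 6.45% of all loci were, and 0 were lower, where 1.4% were. The 3 loci ranked lower by fold, at Atoh1 and Creb3l1, therefore overlapped between genotypes by pileup, and the 1 ranked higher, at Neurog3, was the same locus on both scales.

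**Figure D3:**
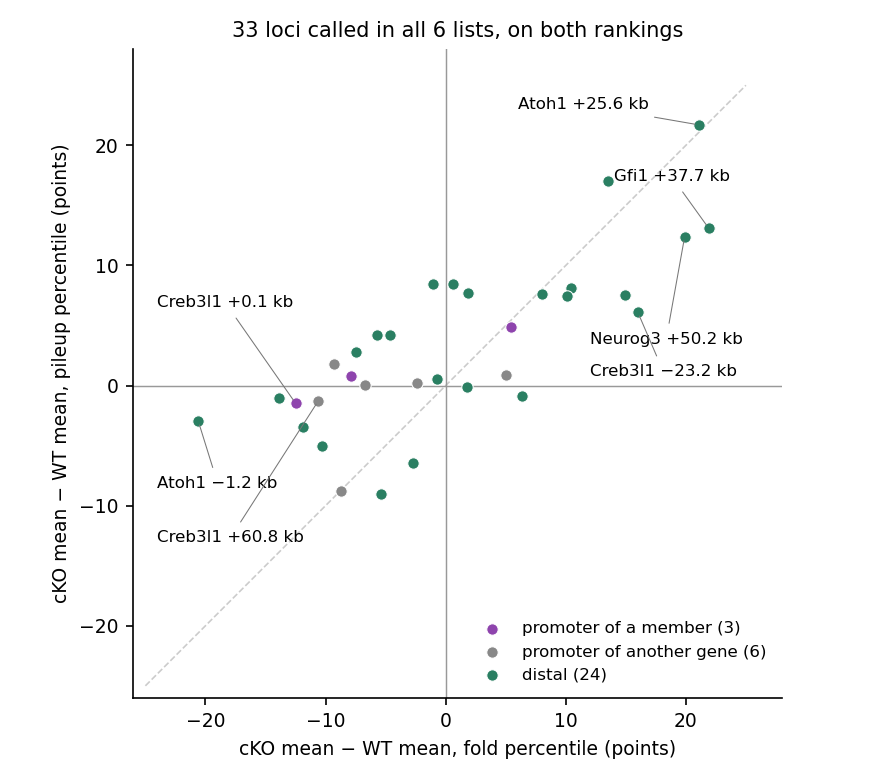
Difference between the cKO and the WT mean for the 33 loci called in all 6 lists, by fold percentile (x axis, points) and by pileup percentile (y axis, points), with a dashed line where both are equal. The Atoh1 locus at −1.2 kb lies at −20.6 by fold and −2.95 by pileup, and the Atoh1 locus at +25.6 kb at 21.1 and 21.7.

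Atoh1 (chr6:64729125-64731245, plus strand, GRCm38), whose product starts secretory differentiation, had 8 loci, 5 of them in all lists. The best ranked element next to its start site lay 1.2 kb upstream, between genes, as a peak of 563 bases in WT 1 and of 2230 to 2564 bases in the other lists, and each list had a peak over the TSS. Further loci lay 5.5, 14, 25.6 and 34.9 kb downstream of the 5′ end. The sequences of 3 of them are shown from GRCm38.p6, plus strand, 201 bases around the summit, because the genotype values below turn on them or because of their position; capitals mark E-boxes, the sites CANNTG at which ATOH1 and related basic helix-loop-helix factors bind.
Atoh1 −1.2 kb, chr6:64727850-64728050: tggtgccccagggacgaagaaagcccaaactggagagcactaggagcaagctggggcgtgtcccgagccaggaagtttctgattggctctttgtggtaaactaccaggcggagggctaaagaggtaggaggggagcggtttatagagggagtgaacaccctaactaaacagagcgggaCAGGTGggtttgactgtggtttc
Atoh1 +5.5 kb, chr6:64734566-64734766: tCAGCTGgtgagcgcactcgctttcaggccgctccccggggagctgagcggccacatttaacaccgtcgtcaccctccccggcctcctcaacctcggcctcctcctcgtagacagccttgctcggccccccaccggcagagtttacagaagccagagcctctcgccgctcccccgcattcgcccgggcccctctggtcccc
Atoh1 +25.6 kb, chr6:64754631-64754831: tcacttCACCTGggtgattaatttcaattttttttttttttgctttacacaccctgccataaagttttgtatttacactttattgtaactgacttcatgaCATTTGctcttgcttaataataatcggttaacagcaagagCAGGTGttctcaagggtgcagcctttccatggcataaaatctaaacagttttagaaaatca

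The −1.2 kb element showed the largest fall in fold rank among the 33 loci. Its fold percentile was 69.8, 63.7 and 67.5 in the WT lists, here and below in the order of their numbers, and 51.1, 51.2 and 36.9 in the cKO lists. Every cKO list lay below every WT list, a difference of −20.6 points. In limma it was −0.53 normal scores with an SE of 0.19 and an adjusted p of 0.776. Leaving out any 1 list gave −23 to −15.9 points.

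The pileup behind these folds did not separate the genotypes. At the summit it was 47, 70 and 98 in the WT lists against 113, 46 and 77 in the cKO lists, over a local background of 5.8, 8.15 and 11.2 against 16.9, 6.84 and 14.4. The 2 highest backgrounds were thus in cKO lists. The pileup percentile was 70.6, 74.6 and 79.4 in WT and 77, 66.8 and 72.0 in cKO, a difference of −2.95 points whose groups overlapped (limma, adjusted p = 0.998).

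**Figure D4:**
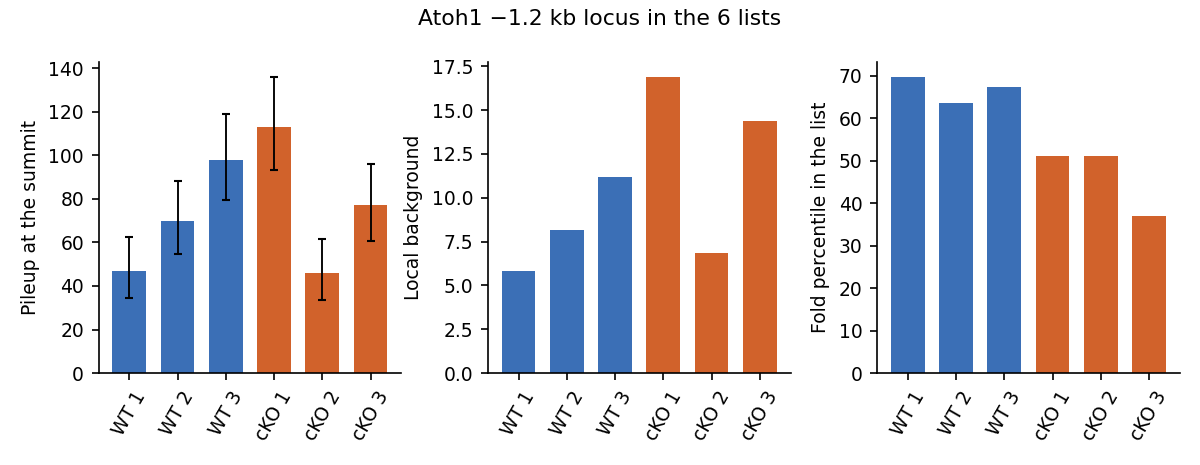
The Atoh1 locus at −1.2 kb in each list: pileup of reads at the summit with 95% Poisson intervals that cover counting error only, local background in the same unit, and percentile of the resulting fold within the list. Pileup ranges from 46 to 113 and overlaps between WT and cKO, while the fold percentile is 63.7 or more in WT and 51.2 or less in cKO.

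The +5.5 kb locus, chosen after its values were seen, lay 3.4 kb past the 3′ end of the gene, the side on which Atoh1 is known to have an enhancer that its own product binds. Its fold percentile was 22.1, 48.8 and 50 in WT and 34.5, 32.3 and 55.9 in cKO, so the genotypes overlapped (adjusted p = 0.982 in limma). Its window held 1 E-box, CAGCTG, 96 bases from the summit.

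Farther downstream the order turned. At +25.6 kb the fold percentile was 44.7, 55.8 and 66.8 in WT and 83.1, 61.4 and 86.0 in cKO, with cKO 2 inside the WT range. The difference was 21.1 points by fold (0.63 ± 0.26 normal scores, SE, limma, adjusted p = 0.776) and 21.7 by pileup (adjusted p = 0.998), and at least 15.5 points with any 1 list left out. The window of this locus held 3 E-boxes, 1 of them 3 bases from the summit.

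The locus at +34.9 kb had the highest fold percentile of the Atoh1 loci when averaged over the 6 lists. The −1.2 kb element was above it in WT by fold, with a mean of 67.0, and in both genotypes by pileup. By fold the +34.9 kb locus stood at 65.6 ± 7.05 in WT and 76.0 ± 18.2 in cKO, with cKO 2 below all WT lists. At +14 kb, named because it was among the 2 loci with an unadjusted p under 0.05 by pileup (adjusted p = 0.998 in limma), the pileup percentile was 15.0, 31.4 and 11.6 in WT and 41.4, 21.6 and 46.2 in cKO. In both, cKO 1 and cKO 3 were high and cKO 2 was not, and cKO 1 was also the longest of the 6 lists.

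Gfi1 (chr5:107716657-107726036, minus strand) encodes a zinc-finger repressor that keeps secretory progenitors from the enteroendocrine fate. Each list held 4 peaks in its window. The peak nearest an annotated start site, at +2.0 kb in the gene, ranked low, at 16.2, 31.7 and 38.3 in WT and 29.3, 39.6 and 23 in cKO. That peak did not set the genotypes apart. The promoter locus, at +1.1 kb, was called in 2 WT and 3 cKO lists. Its fold percentile was 5.4 and 15.7 in WT 2 and WT 3 and lower in each cKO list, at 2.7, 3.23 and 5.04. By pileup percentile the genotypes overlapped, at 29.1 and 47.1 in WT and 39.2, 30.3 and 41.6 in cKO. WT 1 had no peak there, so the promoter locus was not tested.

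The locus of the Gfi1 window with the highest mean fold percentile lay at +37.7 kb, 28.4 kb past the gene, in an exon of 5830411K02Rik. Its 201 bases, shown because they hold 3 E-boxes, 1 of them CAGCTG, and 2 matches to the GFI1 core AAATCA, were as follows.
Gfi1 +37.7 kb, chr5:107688198-107688398, plus strand: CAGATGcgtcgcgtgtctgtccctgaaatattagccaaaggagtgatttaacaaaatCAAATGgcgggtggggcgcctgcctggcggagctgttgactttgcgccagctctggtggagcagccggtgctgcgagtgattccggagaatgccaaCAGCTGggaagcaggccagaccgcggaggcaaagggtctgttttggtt

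Its fold percentile was 22, 78.4 and 63.3 in WT and 81.7, 64.2 and 83.4 in cKO. The difference of 21.9 points came largely with WT 1: without that list it was 5.59 by fold and 0.162 by pileup. In limma the adjusted p was 0.776.

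Spdef (chr17:27714352-27728955, minus strand) encodes an ETS factor that drives the maturation of goblet and Paneth cells. It had 15 loci, of which 3 were in all lists and 6 in a single list, 5 of these in cKO lists, which held 55% of all loci called in a single list. No list had a summit in a Spdef promoter. The leading locus lay in an intron of the gene at +11.9 kb and overlapped between genotypes, at 70.9, 81.6 and 79.4 in WT and 81.7, 72.7 and 82.8 in cKO (1.77 points, 0.06 ± 0.20 normal scores, SE, adjusted p = 0.941 in limma).

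At +20.7 kb, in an intron of the neighbouring gene Pacsin1, the fold percentile was 54.3 ± 16.6 in WT and 60.6 ± 8.77 in cKO, with WT 1 lowest. Upstream, 2 weak loci named after their values were seen stood lower in WT. At −12.7 kb the fold percentile was 3.24, 17.8 and 21.2 in WT and 28.9, 21 and 37.0 in cKO, with an adjusted p of 0.776. At −5.9 kb WT 1 had no peak, WT 2 and WT 3 were at 8.53 and 4.16, and cKO lists were at 24.2, 35.0 and 29.4; a locus absent from a list was not tested. The WT-sided locus of the 77 was also near Spdef, at +26.2 kb in a Pacsin1 exon, with pileups of 18 in WT 1 and 21 in WT 3.

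Creb3l1 (chr2:91982328-92024502, minus strand) encodes a membrane-bound factor of the endoplasmic reticulum that is cleaved to enter the nucleus and supports secretory capacity, in colonic goblet cells among others. It had 24 loci, 12 of them in all lists, more than any other member, in a window that also holds start sites of Dgkz. Its promoter peak, 0.1 kb inside the gene, had the highest mean fold percentile among loci with a summit in a promoter of the 9 genes. The Atoh1 locus at −1.2 kb covers the TSS but counts as distal, since its summit lies outside the promoter limits. That locus stood higher in WT by fold (67.0 against 64.5) and in both genotypes by pileup, and lower in cKO by fold (46.4 against 52.0). At the Creb3l1 promoter the fold percentile was 63.3, 65.4 and 65.0 in WT and 46.7, 53.7 and 55.7 in cKO. Each cKO list was thus below every WT list (−12.5 points, adjusted p = 0.776 in limma).

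As at Atoh1, the pileup of the Creb3l1 promoter did not follow the fold. The pileup was 43, 54 and 66 in WT and 79, 40 and 72 in cKO, against local backgrounds of 5.93, 5.88 and 7.62 in WT and 12.4, 5.60 and 10.3 in cKO. By pileup percentile the promoter stood at 67.3, 67.6 and 69.7 in WT and 67.9, 62.2 and 70.1 in cKO, and the genotypes overlapped.

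Of the distal loci of Creb3l1, those at +16.0 and −23.2 kb had the highest fold percentiles averaged over the 6 lists. The intronic locus at +16.0 kb had the largest pileups of the 2, 79, 150 and 195 in WT and 241, 117 and 152 in cKO, and a fold percentile of 89.4 ± 2.64 and 88.6 ± 3.77. At −23.2 kb, upstream of the gene, the fold percentile was 56.4, 83.2 and 86.8 in WT and 94.5, 81.9 and 98.1 in cKO. That difference of 16.0 points had an adjusted p of 0.776 in limma, and without WT 1 it was 6.52. By pileup it was 6.10, and −1.99 without WT 1. The intronic locus at +39.8 kb, chosen after its values were seen, ranked above the −23.2 kb locus in WT by fold and in both genotypes by pileup. Its fold percentile was 75.7, 91 and 92.5 in WT and 71.5, 83.7 and 73.2 in cKO, a difference of −10.3 points whose groups overlapped (limma, adjusted p = 0.776).
Creb3l1 −23.2 kb, chr2:92047651-92047851, plus strand, shown for its single E-box CAGCTG, 5 bases from the summit: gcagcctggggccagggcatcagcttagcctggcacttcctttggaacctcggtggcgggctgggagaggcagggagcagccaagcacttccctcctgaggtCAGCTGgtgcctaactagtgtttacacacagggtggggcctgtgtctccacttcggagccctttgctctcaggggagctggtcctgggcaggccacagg

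The third locus lower by fold in every cKO list lay 60.8 kb from the Creb3l1 start and is a promoter of Dgkz, which encodes a diacylglycerol kinase. It stood at 95.3, 87.1 and 86.5 in WT and 79.9, 82.2 and 75.0 in cKO by fold, and at 96.5 to 98.2 in WT and 94.0 to 97.7 in cKO by pileup.

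Neurog3 (chr10:62133090-62134763, plus strand) encodes the factor that commits progenitors to the enteroendocrine lineage, which few crypt cells express at a time. Its promoter peak, 0.3 kb upstream of the 5′ end, was called in cKO 1 and cKO 3 alone, with pileups of 13 and 17 and fold percentiles of 23.3 and 33.9. These are low pileups, and cKO 1 and cKO 3 had the 2 highest lowest-backgrounds of the 6 lists, 2.29 and 2.18. WT 1, without the peak, came next at 2.11. A promoter peak in 2 or more cKO and 0 WT lists was found at 0.666% of all protein-coding genes. Whether the peak follows genotype or depth was not tested. The window held 1 E-box, CAGCTG, 90 bases from the summit.
Neurog3 −0.3 kb, chr10:62132738-62132938, plus strand: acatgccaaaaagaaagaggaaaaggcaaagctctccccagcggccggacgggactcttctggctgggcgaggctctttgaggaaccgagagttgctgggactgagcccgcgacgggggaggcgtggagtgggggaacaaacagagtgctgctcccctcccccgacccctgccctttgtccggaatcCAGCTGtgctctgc

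The locus higher in every cKO list lay at +50.2 kb, between genes and 5642 bases from the nearest start site, that of Tspan15, a tetraspanin gene. The fold percentile was 32.9, 50 and 49.2 in WT and 55.9, 68.1 and 67.8 in cKO (0.51 ± 0.21 normal scores, SE, limma, adjusted p = 0.776). By pileup it was 41.3, 61.1 and 60.9 in WT and 66.4, 67.5 and 66.5 in cKO (adjusted p = 0.998). Its place in the Neurog3 window rests on the 50 kb limit, since its nearest gene is Tspan15.
Neurog3 +50.2 kb, chr10:62183163-62183363, plus strand, shown as the 1 locus ordered alike on both scales: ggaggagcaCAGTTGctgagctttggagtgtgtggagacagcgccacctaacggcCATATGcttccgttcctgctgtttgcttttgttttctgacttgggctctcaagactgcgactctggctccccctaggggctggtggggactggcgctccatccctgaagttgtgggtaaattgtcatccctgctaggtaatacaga

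At the other end of the Neurog3 window, the locus at −49.3 kb overlapped between genotypes, at 41.6 ± 14.8 in WT and 36.1 ± 24.9 in cKO. The highest ranked peak of the window, at −22.3 kb, is the promoter of Fam241b and stood at 93.1 ± 4.47 and 98.1 ± 0.588.

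Neurod1 and Pax4 had no peak over a start site. Neurod1 (chr2:79452521-79456751, minus strand), a helix-loop-helix factor downstream of Neurog3, had 1 weak peak in the 6 lists, in WT 3, in an intron of Cerkl at +46.3 kb with a pileup of 8. Pax4 (chr6:28442334-28449353, minus strand), a paired homeodomain repressor, had 10 loci but none in its promoter. Of the 4 Pax4 loci in all lists, 3 were promoters of Snd1, Arf5 and Gcc1, and the 1 distal locus, at −20.9 kb, was at 10.1, 41.4 and 57.9 in WT and 28, 33.1 and 40 in cKO. Both cKO-sided Pax4 loci, at −11.4 and −15.3 kb, were called in cKO 1 and cKO 3, with pileups of 12 to 18, as was the fourth cKO-sided locus, 9.9 kb upstream of Creb3l1, with pileups of 18 and 21.

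Insm1 and Nkx2-2, like Creb3l1, each had a promoter locus called in all 6 lists. At each of these genes the summit lay within the promoter limits in some of the lists and outside them in others. Insm1 (chr2:146221921-146225020, plus strand), a zinc-finger gene of a single exon, had 1 broad locus of 2622 bases over its TSS and gene body, whose summit moved between lists from 488 bases upstream to 1503 bases downstream of the 5′ end. Its fold percentile was 41.8, 36.9 and 41.9 in WT and 28.7, 50.9 and 17.5 in cKO, with cKO 2 highest and cKO 3 lowest of the 6. Its pileup percentile was 52.5 to 61.5 in WT and 53.7 to 59.5 in cKO.

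Nkx2-2 (chr2:147177546-147194243, minus strand), a homeodomain factor of enteroendocrine cells, had a promoter locus at −0.8 kb with fold percentiles of 28.1, 30.8 and 39.0 in WT and 52.0, 38.3 and 24 in cKO, so both genotypes overlapped. A weaker one, at +0.1 kb, was called in WT 2, WT 3 and cKO 3 at percentiles of 6.80 to 9.35. The locus with the highest mean fold percentile lay in the gene at +15.9 kb, with 50.9, 50.9 and 70.7 in WT and 65.6, 62.4 and 68.7 in cKO (adjusted p = 0.820 in limma).

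**Figure D5:**
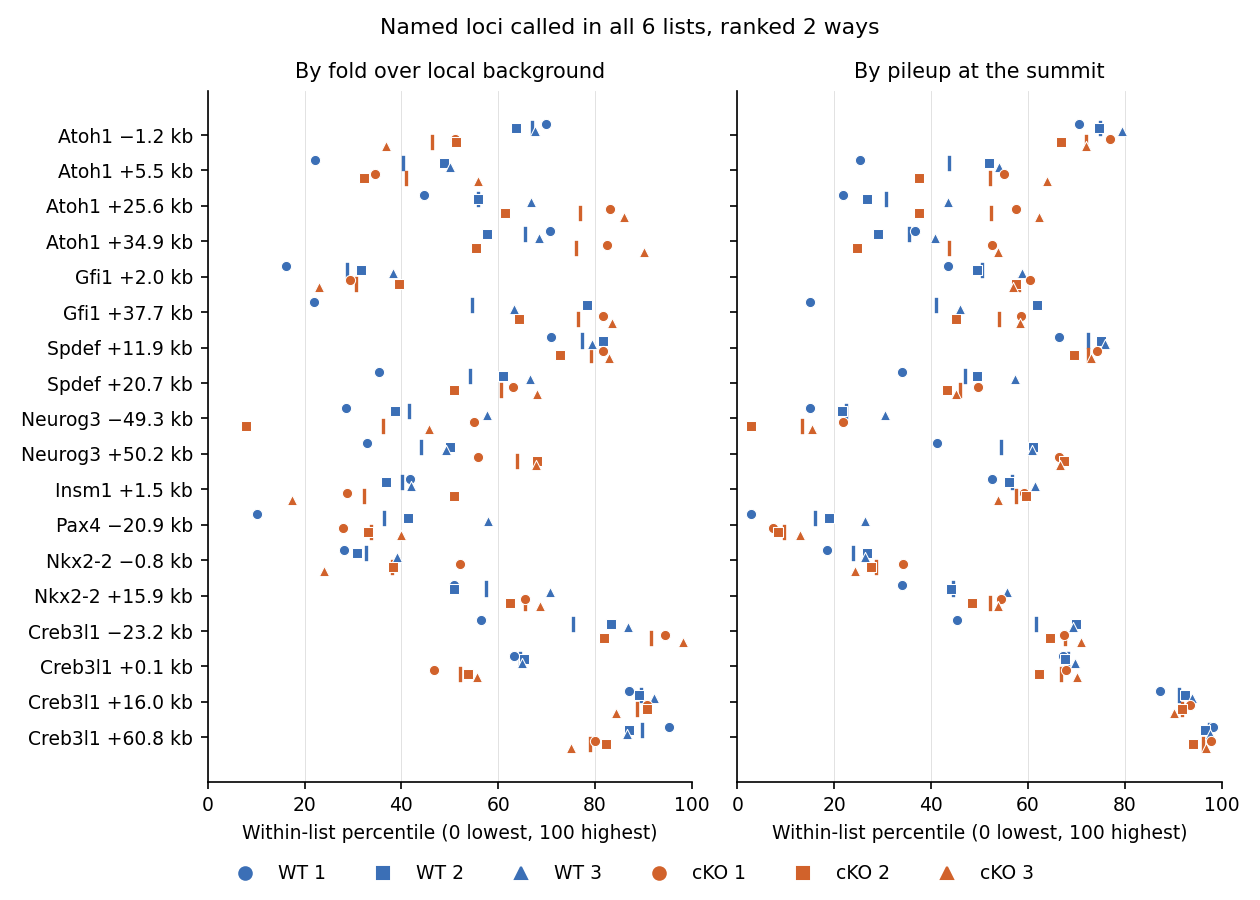
Within-list percentile of 18 named loci called in all 6 lists, by fold over local background (left) and by pileup at the summit (right), with WT lists in blue, cKO lists in orange and a bar at each genotype's mean. Atoh1 −1.2 kb, Creb3l1 +0.1 kb and Creb3l1 +60.8 kb separate by genotype on the left only, and Neurog3 +50.2 kb on both sides.

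By class, the loci split as follows. The 3 promoter loci in all lists had a median fold percentile of 40.2 ± 2.83 in WT and 40.5 ± 14.4 in cKO, whereas the median over all promoter loci was 80 to 84.2 in the 6 lists. The 24 distal loci had a median of 50.1 ± 10.9 in WT and 57.0 ± 4.51 in cKO. Without WT 1, at 38.6 the lowest list, this difference of 6.88 points was 0.163. The median over all distal loci was 48.5, 58.4 and 61.6 in WT and 62.9, 54.7 and 59 in cKO, so WT 1 was the lowest list there too. The distal class includes the loci at Atoh1 −1.2 kb and Gfi1 +2.0 kb, which cover a TSS but have summits outside the promoter limits. Locus by locus, 13 distal loci had a higher and 11 a lower mean in cKO, with a median difference of 1.18 points, beside 1.19 for all distal loci. The 6 promoters of other genes in these windows had 1 higher and 5 lower, with a median of −7.71; of all promoter loci in all lists 38.6% had a higher mean in cKO, with a median of −1.27.

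The 2 rankings gave different splits over the whole set as well. Of the 33 loci, 15 had a higher cKO mean by fold (45.5%, against 49.3% of all loci) and 22 by pileup (66.7%, against 71.4%). The median local background over the 33 loci, relative to each list's lowest background, was 2.36, 3.23 and 3.66 in WT lists and 4.45, 2.92 and 3.80 in cKO lists, so cKO 1 and cKO 3 were highest and WT 1 lowest. All 32748 loci had the same order, from 2.27 in WT 1 to 4.62 in cKO 1. The part of this background in the rank differences was not tested beyond the comparison of both rankings.

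The sequence at the summits of the 77 loci was searched on both strands, 100 bases either side and without mismatches. An E-box CANNTG was found in 54 (70.1%, against 65.6% of all loci), the form CAGCTG in 13 (16.9%, against 14.3%) and the form CAGATG in 13 (16.9%, against 13.5%), these forms being contained in the first. AP-1 sites TGACTCA or TGAGTCA were in 3 (3.9%, against 8.11%), GATA sites AGATAA in 3 (3.9%, against 12.8%) and ARID3 sites ATTAAA or ATCAAA in 9 (11.7%, against 16.1%). CDX sites CNATAAA were in 9 (11.7%, against 11.5%), the GFI1 core AAATCA in 6 (7.79%, against 9.59%) and TCF sites CTTTGAT or CTTTGTT in 5 (6.49%, against 8.45%). The HNF1 core GTTAAT was in 5 (6.49%, against 7.08%). The HNF4 sites CAAAGTCCA or CAAAGTTCA were in 0, which allows a share of up to 3.9%, against 2.52% of all loci. The median A+T content was 43.3%, against 48.8% of all loci. A match describes the letters and not the binding of a factor.

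A further 35 regulators of secretory fates, listed with the members' roles in mind, gave a wider view. Promoter peaks were called in 6 of 6 lists for 23 of them (44.6% of all protein-coding genes had one in 6 of 6) and in no list for 3. All 10 goblet and Paneth regulators had one in every list, as did 6 of 12 enteroendocrine regulators, 6 of 10 genes of fate choice and Notch signalling, and 2 of 4 tuft cell regulators. Of 206 loci in all lists, counted once per gene, 7 were higher in every cKO list by fold (3.4%, against 4.66% of all loci) and 26 lower (12.6%, against 7.04%). The lower loci were most numerous near Hes1 and Foxa1, with 5 each, and Mecom, with 4, where 0, 1 and 1 were higher. By pileup 12 of the 206 loci were higher (5.83%, against 6.45%) and 3 lower (1.46%, against 1.4%). The direction therefore turned with the ranking, as it did for all loci, and none passed the limma test.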

How the data were processed

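Accessibility was measured by ATAC-seq in 6 samples, 3 per genotype, grouped by the genotype in their labels. The authors ran nf-core/atacseq on GRCm38 (trimming, BWA alignment, filtering, blacklist removal), and narrow peaks were called per sample with MACS2 and an effective genome size of 2.6 Gb. How the caller treated Tn5 offsets, and whether reads or read pairs were piled up, is not given in the sources used here. Each deposited list gives, per peak, a score (10 times the −log10 q, cut to a whole number), the fold (a ratio of pileup to local background), −log10 p, −log10 q and the summit offset, all values of the authors for single peaks. No read counts per peak were used here, so no count model was fitted.

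In the caller, 1 is added to pileup and background before they are divided, and p is the upper Poisson tail above the pileup. A whole pileup that satisfied both columns, within 0.002 in −log10 p (in proportion above 10), was found for 100% of peaks in each list. Once −log10 p below 10 had been moved at random, 1.2% to 1.31% of peaks still gave a whole pileup. The lowest background of a list, 1.75 to 2.29, stands for its depth. Total read numbers were not used here.

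Only the 19 autosomes, X and Y were used, which left out 61 to 92 peaks per list. Lists were merged by overlap of at least 1 base, and a locus takes the strongest peak of each list. Genes came from GENCODE M21 and sequence from GRCm38.p6, with 1-based coordinates. Loci were called promoter (summit of any list from 1000 bases before to 100 after a TSS of a member), promoter of another protein-coding gene, or distal. Normal scores of within-list fold ranks were fitted with limma 3.58.1 (R 4.3.3) over all loci in all lists, with a Benjamini-Hochberg threshold of 0.05. The fit was also run on simulated data, with shifts larger than the differences found at the members' loci. Its power for differences of the size found was therefore not tested. The exact permutation test of peaks per gene was two-sided. The text names all 9 members, their promoter loci, the 2 distal loci per gene of highest mean percentile in all lists and loci whose genotypes did not overlap, and says where another was chosen after its values were seen. Members, lists and motifs were chosen with earlier results of these data known. Alternatives changed the rank, list length, threshold, overlap, window, promoter and samples, and a ranking by pileup was added after seeing the data. Tables were made with pandas 2.3.3 and scipy 1.17.1 (Python 3.11.15).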

Additional observations from a re-analysis of the deposited data

How the results depend on the processing

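No locus near the 9 genes passed limma in any of the 16 alternatives. The count of loci higher by fold in every cKO list, 1, was 3 when ranks were taken among peaks called in all lists, 0 with windows of 25 kb or by nearest start site, and 2 with windows of 100 kb. The count of loci lower, 3, was 0 by pileup, a ranking chosen after seeing the data. The cKO-only count of 0 was 2 once peaks under a −log10 q of 5 were left out and 4 when 2 of 3 lists sufficed, and the WT-only count of 0 was then 1. With 1 list left out, the counts were 1 to 9 higher, 3 to 8 lower, 0 to 4 cKO-only and 0 to 1 WT-only. Without cKO 2 there were 9 higher, 7 lower and 4 cKO-only loci. There were 6 higher and 2 cKO-only without WT 3, 3 higher and 8 lower without WT 1, 2 higher, 5 lower and 1 WT-only without WT 2, and 6 lower without cKO 1; 2 lists against 3 separate more often than 3 against 3. The cause of the other shifts was not tested. Shares of all loci were not computed with a list left out, for ranks among shared peaks or for the −log10 q limit. Those counts therefore cannot be read as particular to the members.

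The difference in peaks near the 9 genes, 6, ranged from 2.33 to 10.3 with 1 list left out, that in the promoter median, 0.306 points, from −4.87 to 8.56, and that in the distal median, 6.88 points, from 0.163 to 12. The promoter difference turned to −8.63 with promoters of 2000 bases upstream and 500 downstream, −7.99 with peaks of a −log10 q of at least 5, −3.52 with overlap of windows around summits and −1.67 with lists of equal length, against SDs of 4.07 to 14.5, so it has no stable direction. With the replicate number as a replicate block, limma called 0 loci; the promoter and distal differences, 0.306 and 6.88 points, cannot change under a block in a balanced design. Deviations of same-numbered WT and cKO lists had correlations of −0.272, −0.019 and 0.125, and those of other-numbered lists −0.328 to 0.308. With 3 lists per genotype, these values cannot show whether the numbers pair the samples. A peak missing from a list may lie below the threshold of that list. Whether depth sets which weak peaks are missing was not tested. WT 1 had the fewest peaks, 40492, at a lowest background of 2.11, and cKO 2 had 46415 at 1.75.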
